A study of Caenorhabditis elegans with 16 samples.

Results

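The response of wild-type Caenorhabditis elegans adults to a day without food was described from 8 of the 16 libraries of the series, selected by their labels: 4 from fed animals and 4 from fasted ones. The animals were N2 (Bristol) worms kept at 20 °C on bacteria carrying the empty RNAi vector (EV) from the first larval stage, so fed and fasted animals shared that vector treatment. From adult day 1 to adult day 2, for 24 hours, the fed group had bacteria ad libitum and the fasted group had none. Each library was made from the polyadenylated RNA of a pooled whole-animal lysate of about 1000 worms, so every value averages over all tissues and over the pool. The labels describe 4 independently synchronized replicate experiments, give all libraries the same batch number, and name no agent that blocks egg production or embryonic development. One protocol field places the worms on plates of the standard strain OP50-1 and another on RNAi bacteria, and the files do not settle which applies. The other 8 libraries came from pools labelled H3K27ac-deficient, fed or fasted in the same way. They combined cbp-1 RNAi with a jmjd-3.1 mutation, named gk384 in the titles and gk387 in the genotype field, and enter below where the fasting responses of both genotypes are compared.

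The worm has no separate liver or adipose tissue, and its intestine stores fat, makes yolk and secretes digestive and antimicrobial proteins. When food is withdrawn, stored triglyceride is released by lipases in the cytosol and the lysosome, and the fatty acids are activated with coenzyme A and oxidised in mitochondria and peroxisomes. Known regulators of this switch include the nuclear receptor NHR-49, the lysosomal regulator HLH-30 (the TFEB homologue), the FOXO factor DAF-16 below the insulin receptor, and the AMP-activated kinase.

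The fed libraries held 23777099, 19888454, 17651120 and 20046559 assigned reads and the fasted ones 17899880, 20468654, 20908582 and 19973233. Of 15840 genes tested with edgeR's quasi-likelihood test, 61.0% passed an adjusted p of 0.05 between fasted and fed wild-type animals, with 30.4% higher and 30.6% lower. At least 2-fold higher genes made up 16.5% and at least 2-fold lower genes 10.4% of those tested, and these shares are the background for the counts below. The libraries of the 2 groups did not overlap in 50.4% of tested genes. Levels are given as CPM (counts scaled by library) after scaling by the trimmed mean of M-values (TMM), changes as log2 of fasted over fed, and each adjusted p is edgeR's, over all tested genes. On the first principal component of the 8 libraries, which held 76.2% of the variance, fed and fasted libraries stood on opposite sides. Fed replicate 4 stood apart from the other fed libraries on the second, with 8.03% of the variance, and the count of changed genes was 9166 without it and 9657 with it. Scaling by library size alone raised the median change of all genes by 0.34, the upper quartile by 0.20, and DESeq2's size factors moved it by -0.01. With library size alone, 74.7% of the called genes were higher in fasted animals, against 49.8% with TMM. Counts under library size alone are therefore printed beside any group whose direction or balance they change.

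The make-up of the messenger RNA pool differed between the groups. TPM (transcripts scaled by length and library), which allow levels to be compared between genes, gave cuticle collagens of the col family 3.68, 5.26, 4.38 and 4.01% of all transcripts in the 4 fed libraries. They gave 0.391, 0.418, 0.413 and 0.421% in the 4 fasted ones. The groups did not overlap, and the mean share was 10.6 times as large in fed animals. Collagens are made by the hypodermis, the skin beneath the cuticle. In whole-animal RNA, fewer cells of a type and less RNA per cell cannot be told apart, here or in any tissue below. The 12 protein-coding genes of the mitochondrial genome took 3.14, 1.84, 2.65 and 1.64% in fed libraries and 4.65, 4.59, 5.34 and 3.92% in fasted ones. Every fasted library was above every fed one, and fed replicates 2 and 4 were the lowest. Cytosolic ribosomal proteins held the largest share of the classes listed, with 16.2, 20.2, 18.3 and 21.1% fed and 17.7, 17.02, 16.3 and 19.8% fasted, and their ranges overlapped. Acyl-CoA synthetases with the carnitine shuttle had a share 2.69 times as large in fasted animals. Genes known as targets of FOXO in worms had one 4.24 times as large by TPM. Most of that gain came from mtl-1, with means of 83.3 TPM fed and 3539 TPM fasted, and hsp-12.6, with 1.45 and 1149 TPM.

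**Figure D1:**
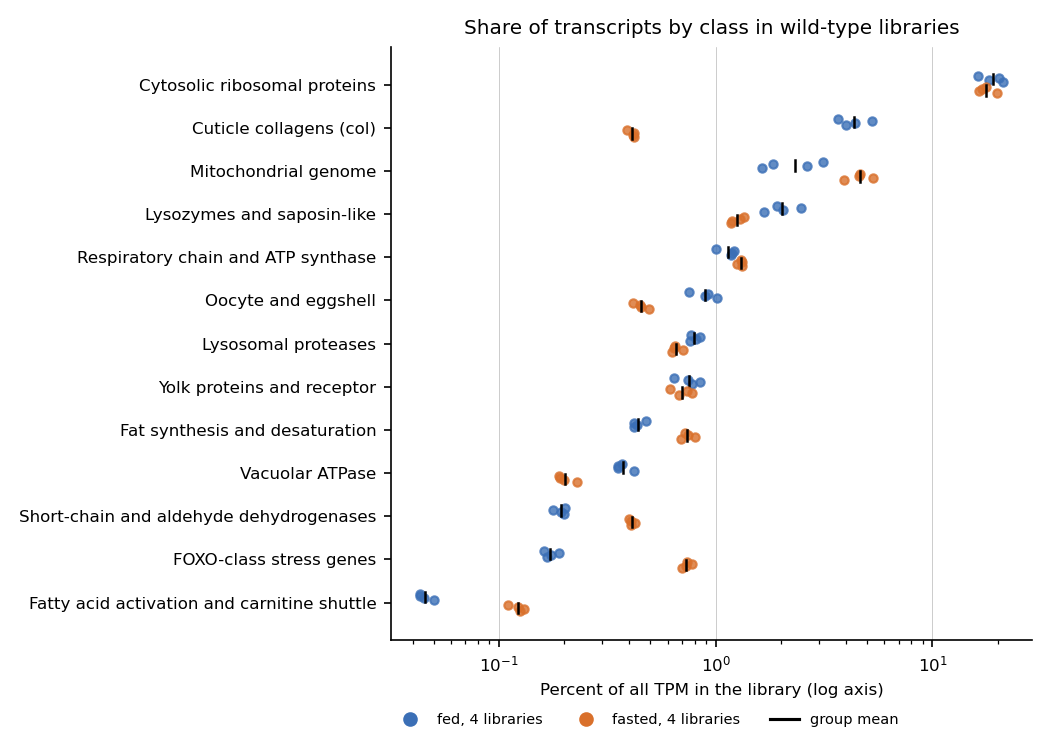
Percent of all TPM in each wild-type library (log axis) for 13 gene classes, with fed libraries in blue, fasted libraries in orange and black ticks for the group means of 4 libraries. Collagens sit near 4% in fed and near 0.4% in fasted libraries, while ribosomal proteins overlap between the groups.

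Ribosomal protein genes led the ranking of single transcripts in fed animals. rpl-39 averaged 11531 ± 2818 TPM (SD, n = 4) and rpl-29 10769 ± 3407 TPM. far-2, which encodes a fatty acid- and retinol-binding protein, averaged 9653 ± 840.4 TPM. In fasted animals the 5 highest genes were rpl-29, rpl-39, the mitochondrially encoded cytochrome oxidase genes ctc-2 and ctc-3, and ule-4. ctc-2 averaged 4397 ± 1600.1 TPM fed and 11312 ± 1472 TPM fasted. ule-4, a gene first described in the uterine lumen, averaged 4061 ± 916 TPM fed and 9810.4 ± 522 TPM fasted. C17F4.7, among the 5 highest in fed animals at 9652 ± 813 TPM, was at 2933 ± 138 TPM after fasting, and rpl-41.2, also among those 5, was at 8265 ± 1514 and 8445 ± 973 TPM.

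Lowly expressed genes moved more often upwards than abundant ones. Among tested genes averaging under 1 CPM over the 8 libraries, 45.1% rose and 5.41% fell. Among the 256 genes averaging over 500 CPM, 14.8% rose and 57.8% fell. The low group is shaped by the expression filter, which a rare gene can pass through the group in which it is high. Fasted libraries also had reads for more genes, 19746 to 19869 a library against 17891 to 18450 in fed libraries of like depth. Of 561 annotated pseudogenes tested, 289 rose and 56 fell, with a median change of 0.76, against 4519 and 4793 of 15279 protein-coding genes.

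Among genes averaging at least 50 CPM, the 6 largest rises and 6 largest falls were as follows. fmo-2, a flavin-containing monooxygenase (chromosome IV, positions 10682524 to 10684367 in WBcel235), was at 1.13, 1.15, 1.75 and 1.05 CPM in the fed libraries and 222, 181, 209 and 176 CPM in the fasted ones. Its change was 7.29 ± 0.22 on the log2 scale (SE, n = 4 and 4, edgeR adjusted p = 1.35e-17). T22F3.11, with no role stated in the files, went from 0.741 ± 0.269 to 114 ± 12.3 CPM (mean ± SD, n = 4), and C23G10.11 from 2.51 ± 0.577 to 131 ± 10.5 CPM. The other rises of this size were hsp-12.6, sodh-1 and lipl-3. Of the falls, the collagen col-93 was at 408, 912, 585 and 563 CPM fed and 0.734, 1.09, 0.803 and 1.37 CPM fasted. col-43 fell from 147 ± 48.8 to 0.872 ± 0.362 CPM, and pcp-2, a prolyl carboxypeptidase-like gene, from 117 ± 27.3 to 0.719 ± 0.226 CPM. C17H12.6 and F46F2.3 had changes of -8.52 and -7.73, and col-80 fell from 1804 ± 518 to 10.97 ± 2.37 CPM. No fed library overlapped a fasted one in any of these 12 genes.

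**Figure D2:**
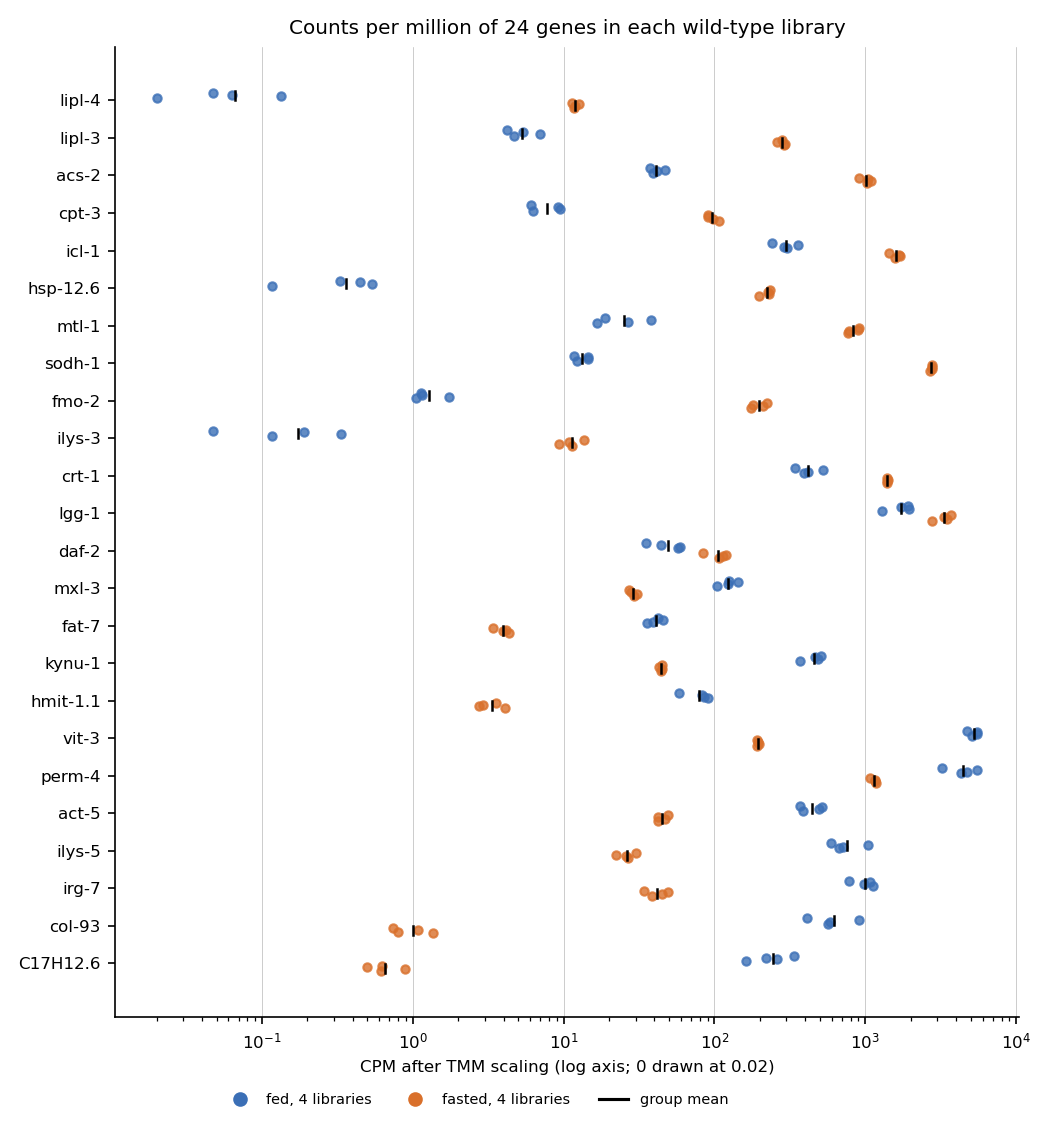
CPM after TMM scaling (log axis) of 24 genes in the 4 fed (blue) and 4 fasted (orange) wild-type libraries, with black ticks for group means and a value of 0 drawn at 0.02. The 2 groups are separate for every gene drawn, and the fasted libraries of lipl-3, acs-2, mtl-1 and sodh-1 lie above all their fed libraries.

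Fat breakdown was changed at several steps. Of 12 tested lipases and lipase partners, 8 rose and 3 fell, with a median change of 0.74. lipl-4, a lysosomal lipase of the intestine, was at 0.0473, 0.0637, 0.135 and 0 CPM in fed libraries, which is 0 to 2 reads each, and at 11.3, 12.7, 11.9 and 11.8 CPM in fasted ones (edgeR adjusted p = 1.12e-14). The fed counts are too few for a fold change. Its relative lipl-3 was at 4.21, 5.42, 6.93 and 4.69 CPM fed and 280.5, 261, 293 and 288 CPM fasted. lipl-2 rose from 76.4 ± 19.2 to 162 ± 24.0 CPM and lipl-5 from 436 ± 55.6 to 677 ± 20.4 CPM. lipl-7 fell, with a change of -1.26. Among the cytosolic enzymes, the adipose triglyceride lipase atgl-1 did not pass the test at 64.8 ± 7.86 and 60.9 ± 4.27 CPM, and with library size alone it was higher in fasted animals (change 0.25). Its activator lid-1, the worm homologue of CGI-58, fell by 0.62 on the log2 scale. The hormone-sensitive lipase hosl-1 rose by 0.84 and fil-1, named as a fasting-induced lipase, by 1.61. Of the lips family of predicted lipases, lips-5 fell from 24.5 ± 1.77 to 1.71 ± 0.468 CPM and lips-15 from 59.4 ± 10.7 to 27.2 ± 1.34 CPM. lipl-1 changed by 0.34 (adjusted p = 0.0284), a call lost without fed replicate 1 (adjusted p = 0.0618), fed replicate 4 (0.0725), fasted replicate 1 (0.0843) or fasted replicate 4 (0.0548), or with no expression filter (0.133).

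Activation and import of fatty acids rose in 13 of 23 genes and fell in 3, with a median of 0.59. The acyl-CoA synthetase gene acs-2 (chromosome V, positions 15567394 to 15569897) was at 37.3, 46.9, 41.4 and 38.9 CPM in fed and 908, 1038, 1085 and 1026 CPM in fasted libraries. cpt-3, of the carnitine palmitoyltransferase family, was at 6.05, 9.12, 9.42 and 6.27 CPM and 91.3, 90.3, 97.3 and 107 CPM. Both genes had every fasted library far above every fed one. acs-1, which activates branched-chain fatty acids, moved the other way, from 271 ± 17.7 to 34.9 ± 2.79 CPM, and cpt-5 fell by 0.99 on the log2 scale.

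The oxidation steps themselves did not rise as a group. Of 36 genes of mitochondrial and peroxisomal beta-oxidation, 8 rose and 17 fell (median -0.21), and with library size alone 15 rose and 13 fell (median 0.13). The hydroxyacyl-CoA dehydrogenase gene hacd-1 rose from 88.2 ± 7.51 to 392 ± 24.3 CPM. The enoyl-CoA hydratase gene ech-9 rose from 10.1 ± 2.52 to 23.5 ± 3.18 CPM. The acyl-CoA dehydrogenase gene acdh-2 changed by -2.20 and the peroxisomal acyl-CoA oxidase gene acox-1.2 by -2.19. All 8 libraries of both falling genes were split by group without overlap.

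The enzyme that lets acetyl-CoA from fat feed sugar synthesis rose. icl-1, which carries both glyoxylate cycle activities in worms (chromosome V, positions 724332 to 728004), was at 242, 357, 291 and 303 CPM fed and 1438, 1683, 1701 and 1566 CPM fasted. The phosphoenolpyruvate carboxykinase genes diverged. pck-2 rose from 760.2 ± 103.7 to 1318 ± 73.5 CPM, whereas pck-1 fell from 358 ± 81.5 to 239 ± 4.99 CPM, a fall that library size alone left uncalled (adjusted p = 0.0822). Fructose-bisphosphatase fbp-1 fell by 1.12 on the log2 scale. Pyruvate carboxylase pyc-1 did not pass the test with TMM (change 0.18) and was higher with library size alone (change 0.52). In the tricarboxylic acid cycle, 6 of 24 genes rose and 7 fell (14 and 5 with library size alone). The 2 largest rises were citrate synthase cts-1, from 309 ± 43.1 to 624 ± 16.4 CPM, and mitochondrial aconitase aco-2, from 319.6 ± 30.6 to 576 ± 21.9 CPM. The succinyl-CoA synthetase subunit gene sucg-1 fell by 0.95 on the log2 scale.

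For sugar breakdown the balance depended on the scaling. Of 22 glycolytic genes, 4 rose and 13 fell with TMM, but 6 rose and 6 fell with library size alone. Hexokinase hxk-1 fell from 267 ± 33.0 to 143 ± 9.03 CPM and enolase enol-1 from 503 ± 62.3 to 291 ± 9.98 CPM. Aldolase aldo-2 rose from 305 ± 50.2 to 731 ± 19.3 CPM and pyruvate kinase pyk-2 from 103 ± 17.9 to 209.6 ± 13.3 CPM. Trehalose, the main circulating sugar, and glycogen had 13 genes tested, with 2 higher and 7 lower (4 and 2 with library size alone). The trehalase genes split, tre-5 rising from 5.27 ± 1.75 to 31.9 ± 1.48 CPM and tre-2 falling from 92.9 ± 2.02 to 25.2 ± 3.16 CPM. The trehalose-phosphate synthase tps-1 rose by 0.88 and the glycogenin gyg-2 fell by 0.68 on the log2 scale.

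Fat synthesis genes moved in both directions. Of 30 tested, 13 rose and 10 fell (17 and 7 with library size alone). The stearoyl-CoA desaturase fat-7 was at 41.9, 45.5, 39.4 and 35.8 CPM fed and 3.41, 4.17, 3.97 and 4.34 CPM fasted. dgat-2, an acyltransferase of triglyceride synthesis, was at 84.0, 92.8, 90.2 and 70.1 CPM and 14.5, 14.6, 15.8 and 14.7 CPM. The groups did not overlap for either. Fatty acid synthase fasn-1, chosen after its values were seen, fell from 233 ± 43.2 to 59.7 ± 7.23 CPM. The elongase elo-6, which makes branched-chain fatty acids, rose from 367 ± 92.5 to 1156 ± 201 CPM. The desaturase fat-3, needed for long polyunsaturated fatty acids, rose from 172 ± 26.9 to 497 ± 34.1 CPM. Among 11 lipid droplet and lipid-binding genes 5 rose and 4 fell (6 and 1 with library size alone). The perilipin plin-1 changed by 0.40 and the lipid droplet dehydrogenase dhs-3 by -1.07. lbp-6, a fatty acid-binding protein, rose by 0.68. lbp-2 fell from 2273 ± 587 to 1396 ± 190.0 CPM with overlapping groups, a call lost with library size alone (adjusted p = 0.0816).

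**Figure D3:**
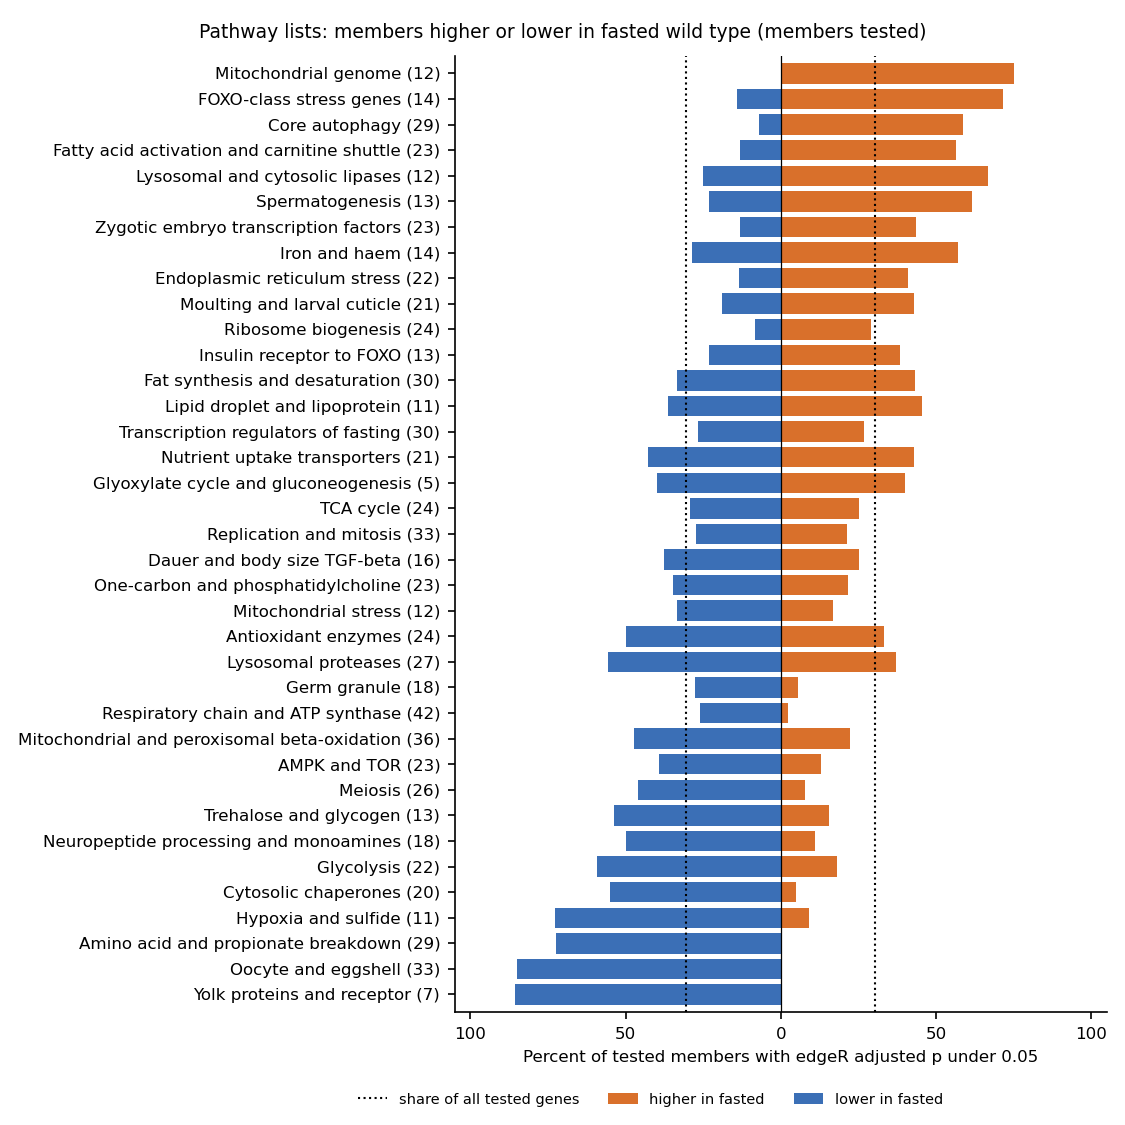
Percent of tested members of each pathway list that were lower (blue, to the left) or higher (orange, to the right) in fasted wild-type animals at an edgeR adjusted p under 0.05 with TMM scaling, with the number tested in brackets and dotted lines at the 30.6% and 30.4% of all genes. Yolk and oocyte genes lie furthest to the left; with library size alone, glycolysis and beta-oxidation lose their excess of lower members.

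Most genes of amino acid breakdown were lower. Of 29 genes of amino acid and propionate breakdown, none rose and 21 fell, 9 of them at least 2-fold, with a median of -0.69. With library size alone 4 rose and 15 fell. The largest falls were in the kynurenine pathway of tryptophan. Kynureninase kynu-1 was at 507, 464, 489 and 371 CPM fed and 44.7, 43.0, 44.7 and 44.4 CPM fasted. haao-1, a dioxygenase of the same pathway, went from 44.5 ± 12.5 to 5.49 ± 1.42 CPM. In one-carbon and phosphatidylcholine metabolism 5 of 23 genes rose and 8 fell (9 and 5 with library size alone). The cystathionine lyase cth-2 fell from 474 ± 85.4 to 93.1 ± 4.05 CPM and the phosphoethanolamine methyltransferase pmt-2 from 304 ± 37.6 to 75.3 ± 2.12 CPM. The S-adenosylmethionine synthetase sams-1, chosen after its values were seen, fell by 1.77 on the log2 scale. Nutrient transporters had 9 of 21 higher and 9 lower (11 and 7 with library size alone). The inositol transporter hmit-1.1 was at 58.4, 83.3, 84.9 and 89.9 CPM fed and 3.57, 2.90, 2.76 and 4.10 CPM fasted. Its paralogue hmit-1.3 rose from 30.1 ± 3.60 to 64.1 ± 4.92 CPM. The dicarboxylate carrier family member nac-3 fell by 2.29 and the oligopeptide transporter pept-3 rose by 1.01 on the log2 scale.

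Among the regulators, members of the insulin pathway moved in both directions. The insulin receptor daf-2 was at 35.3, 44.2, 58.8 and 57.3 CPM fed and 83.7, 120.0, 114 and 106 CPM fasted, without overlap. The receptor substrate ist-1 rose by 1.30, and the kinases akt-2 and pdk-1 by 0.80 and 0.80. daf-16 itself had values of 118 ± 14.6 CPM fed and 102 ± 7.92 CPM fasted and did not pass the test (adjusted p = 0.125), but passed it as lower without fed replicate 1 (change -0.29, adjusted p = 0.0413), with the replicate block (-0.21, 0.0391) and with no expression filter (-0.31, 0.0304). In all 5 of 13 pathway members rose and 3 fell, or 5 without fed replicate 1. With library size alone 6 rose and 1 fell. In the AMP-activated kinase and TOR list 3 of 23 rose and 9 fell with TMM, and 9 rose and 3 fell with library size alone. The kinase's catalytic subunit aak-2 rose from 44.3 ± 4.10 to 71.2 ± 5.70 CPM and its gamma subunit aakg-4 from 12.2 ± 1.30 to 38.6 ± 1.78 CPM. The TOR complex member mlst-8 fell by 0.86 on the log2 scale.

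Transcription regulators linked to fasting moved in both directions. Of 30 tested, 8 rose and 8 fell, with 5 rising without fasted replicate 3, and 14 rose and 3 fell with library size alone. mxl-3, known as a repressor of lysosomal lipase genes in fed worms, was at 125, 143, 122.1 and 104.3 CPM fed and 27.2, 27.9, 30.5 and 29.1 CPM fasted. The CREB homologue crh-1 fell by 1.04 and smk-1, a DAF-16 cofactor, rose by 0.71 on the log2 scale. hlh-30, chosen after its values were seen, changed by 0.37 (adjusted p = 0.027), a call lost without fed replicate 1 (0.12), fasted replicate 2 (0.0617) or fasted replicate 3 (0.0628), or with no expression filter (0.105). Nuclear hormone receptors, a family much expanded in worms, rose in 90 of 208 tested members and fell in 28 (129 and 17 with library size alone). Without fed replicate 4, 69 rose and 28 fell. The 43.3% higher stands beside 41.8% of all tested genes averaging 1 to 5 CPM, and members were not compared with genes of like level. nhr-193 and nhr-19 rose by 1.83 and 1.73, and nhr-74 and nhr-43 fell by 3.24 and 2.11 on the log2 scale.

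Genes known as FOXO targets rose in 10 of 14 cases, 8 of them at least 2-fold, with a median of 1.07, and 12 rose with library size alone. The metallothionein mtl-1 was at 18.7, 37.8, 26.7 and 16.7 CPM fed and 901, 896, 774 and 762 CPM fasted. The small heat-shock protein gene hsp-12.3 was at 3.31, 3.00, 3.30 and 2.81 CPM and 172, 164, 172 and 137 CPM, and hsp-12.6 (chromosome IV, positions 9446229 to 9447228) at 0.358 ± 0.182 and 222 ± 15.6 CPM. No fasted library came near a fed one in these 3 genes. The mitochondrial transhydrogenase nnt-1 rose by 3.31, dod-3 by 3.19 and the peroxisomal catalase ctl-2 by 1.14. The manganese superoxide dismutase sod-3, often used as a DAF-16 reporter, did not pass the test at 8.52 ± 1.89 and 10.5 ± 0.585 CPM (adjusted p = 0.186), and passed it with library size alone (change 0.65).

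Protein-folding genes differed by compartment. In the cytosol 1 of 20 chaperones rose and 11 fell (5 and 7 with library size alone, and 2 rising without fed replicate 2). Of 8 subunit genes of the cytosolic chaperonin CCT none was called with TMM (median -0.09), and 6 rose and none fell with library size alone. The small heat-shock protein gene hsp-17 fell from 123 ± 27.7 to 16.3 ± 2.64 CPM and the inducible hsp-70 from 33.9 ± 6.88 to 10.3 ± 0.562 CPM. In the endoplasmic reticulum 9 of 22 genes rose and 3 fell (16 and 0 with library size alone). Calreticulin crt-1 was at 343, 521, 419 and 393 CPM fed and 1399, 1416, 1389.8 and 1389 CPM fasted, and the disulfide isomerase pdi-6 rose by 0.98. The mitochondrial chaperones hsp-6 and hsp-60, which report stress in that compartment, did not pass the test with TMM (changes 0.07 and -0.15), while hsp-6 was higher with library size alone (change 0.42).

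Redox and metal genes moved in both directions. Of 24 antioxidant enzymes 8 rose and 12 fell (11 and 5 with library size alone). The glutathione peroxidase gpx-5 fell from 107 ± 22.1 to 9.13 ± 0.490 CPM, while gpx-7 rose from 6.39 ± 1.40 to 29.0 ± 2.95 CPM and gpx-6 by 1.29 on the log2 scale. Among iron and haem genes 8 of 14 rose and 4 fell. The metal importer smf-3 rose from 3.11 ± 0.508 to 17.8 ± 1.96 CPM. The ferritin genes diverged, ftn-1 rising from 4.71 ± 2.01 to 25.8 ± 3.19 CPM and the more abundant ftn-2 falling from 552 ± 89.1 to 295 ± 15.6 CPM. In the hypoxia and sulfide list 8 of 11 genes fell and 1 rose (6 and 3 with library size alone). The rising count was 2 without fed replicate 1 and 0 without fed replicate 4 or fasted replicate 2. The collagen prolyl hydroxylase phy-2 fell by 1.86 and the cysteine synthase-like cysl-3 by 1.31 on the log2 scale.

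Core autophagy genes rose more often than they fell, while the genes of the vacuolar ATPase, a proton pump, fell. Of 29 core autophagy genes 17 rose and 2 fell, with a median of 0.34, and 22 rose and none fell with library size alone. Without fed replicate 4 the rising count was 14. The falling count was 0 without fed replicate 1, fasted replicate 2 or fasted replicate 3, and 1 without fed replicate 4 or fasted replicate 4. sepa-1 and epg-2, adaptors that deliver aggregates to autophagy in embryos, rose from 15.5 ± 3.29 to 41.9 ± 2.22 CPM and from 82.2 ± 16.5 to 205 ± 11.8 CPM. The Atg8 homologue lgg-1, chosen after its values were seen, was at 1927, 1729, 1951 and 1283 CPM fed and 3704, 3336, 3467 and 2768 CPM fasted. For lgg-1 as for epg-2, replicate 4 was the lowest library of each group, and the groups did not overlap. All 20 vacuolar ATPase genes fell, 13 of them at least 2-fold, with a median of -1.10, and all 20 did so with library size alone. vha-5 was at 272, 236, 224 and 159.6 CPM fed and 40.3, 40.6, 42.3 and 37.4 CPM fasted, and vha-12 fell from 319 ± 47.3 to 76.8 ± 4.12 CPM. Lysosomal proteases split, 10 of 27 rising and 15 falling. The cathepsin B-like cpr-1 rose from 20.2 ± 5.23 to 157 ± 14.1 CPM and cpr-4 from 54.5 ± 8.53 to 330.5 ± 36.6 CPM. The aspartyl proteases asp-8 and asp-14 fell from 42.3 ± 10.0 to 1.40 ± 0.319 CPM and from 260.4 ± 12.4 to 17.7 ± 0.714 CPM. Of 33 proteasome genes 2 rose and 9 fell (17 and 2 with library size alone). The falls included rpn-6.2 (-1.26) and pas-2 (-0.74), of the regulatory and catalytic particles. The rising count was 1 without fed replicate 1 or fasted replicate 1 and 4 without fed replicate 4.

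The direction of translation genes depended on the scaling. Of 81 ribosomal protein genes 1 rose and 48 fell with TMM (median -0.38), but 5 rose and 8 fell with library size alone (median -0.03). Without fed replicate 2, 27 fell and 3 rose, and without fed replicate 1, 72 fell. No member changed as much as 2-fold, and rpl-37 had the largest fall (-0.94). rps-24, one of the 2 largest falls, was at 1877, 2191, 1833 and 3200.0 CPM fed and 1267, 1089, 1087 and 1880.0 CPM fasted. Its groups overlapped, and replicate 4 was the highest library in each. rpl-24.2 was the 1 member called higher, at 108 ± 15.5 and 144 ± 19.1 CPM with overlapping groups. Translation factors had 4 of 36 higher and 18 lower with TMM, and 12 higher and 1 lower with library size alone. eef-1A.2, an elongation factor gene, rose by 0.39 with overlapping groups, a call lost with no expression filter (adjusted p = 0.0617), and the factor subunit eef-1B.2 fell from 673 ± 88.2 to 361 ± 18.2 CPM. Aminoacyl-tRNA synthetases had 2 of 31 higher and 18 lower (10 and 5 with library size alone), and 1 higher without fed replicate 1, fasted replicate 2 or fasted replicate 4. For the translation factors 2 were higher without fed replicate 2, fed replicate 4 or fasted replicate 3.

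Mitochondrially encoded and nuclear-encoded genes of the respiratory chain had different counts with TMM. Of the 12 mitochondrially encoded genes 9 rose and none fell, with a median of 0.88. ctc-2 was at 4195, 1703, 2765 and 1528 CPM fed and 6028, 5219.7, 6897 and 4655 CPM fasted, and atp-6, a subunit of the ATP synthase, at 2272, 1033, 1548 and 869 CPM and 3224, 2795, 3545 and 2612 CPM. The groups of ctc-2 and atp-6 did not overlap, and fed replicate 1 was the highest fed library of each. ctc-1 did not pass the test with TMM (change 0.45, adjusted p = 0.0548) and passed it with DESeq2's size factors (adjusted p = 0.0475), with library size alone (0.00402), and without fed replicate 1 (0.00521), fed replicate 3 (0.0426) or fasted replicate 4 (0.0237). Of 42 nuclear-encoded subunits 1 rose and 11 fell, 18 without fed replicate 1 (2 rose without fed replicate 2 or 4), and 19 rose and none fell with library size alone. The libraries were selected on poly(A) tails, and mitochondrial transcripts enter such libraries through their short tails.

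Most yolk and oocyte genes were lower with TMM, while the summed share of the yolk list overlapped between the groups. It took 0.644, 0.746, 0.849 and 0.778% of TPM in fed and 0.612, 0.740, 0.776 and 0.679% in fasted libraries. Of 7 genes, the vit genes and the yolk receptor together, none rose and 6 fell, and with library size alone vit-2 was higher and 4 fell. Yolk proteins, the vitellogenins, are made in the intestine and taken up by oocytes through the receptor RME-2. vit-3 (chromosome X, positions 3567355 to 3572549) was at 4750.1, 5541, 5540.5 and 5134 CPM fed and 190.4, 195, 197 and 191 CPM fasted. vit-4 (chromosome X, positions 3558769 to 3563965) was at 3978, 4745, 4756 and 4326 CPM and 63.2, 73.1, 72.3 and 67.3 CPM, and vit-1 fell from 1129 ± 144 to 93.9 ± 5.09 CPM. The fall of vit-1 was 12.0-fold and that of vit-4 64.5-fold, but vit-5 and vit-6 fell by 0.50 and 0.45 on the log2 scale, and neither fall was called with library size alone. vit-2, the most abundant, did not pass the test with TMM at 24469 ± 3669 and 25033 ± 2347 CPM. The vit genes are close relatives, and reads shared between them were divided by the quantifier. The receptor rme-2 fell from 263 ± 50.9 to 117 ± 10.8 CPM.

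Of 33 oocyte and eggshell genes none rose and 28 fell, with a median of -0.79. With library size alone 3 rose and 20 fell. The eggshell barrier genes perm-4 and perm-2 fell from 4436 ± 935 to 1143 ± 47.9 CPM and from 2568 ± 686 to 725 ± 22.9 CPM. Replication and mitosis genes were near the background, with 7 of 33 higher and 9 lower (22 and 2 with library size alone). Without fed replicate 4 these counts were 10 and 6. The maternal cyclin cyb-2.2 fell by 1.13, and topoisomerase top-2 and the checkpoint kinase bub-1 rose by 0.65 and 0.61 on the log2 scale. Meiosis genes had 2 of 26 higher and 12 lower (6 and 5 with library size alone), with 0 or 1 higher without fed replicate 1, 2 or 3 or fasted replicate 2 or 4, and the chromosome axis gene htp-1 fell by 0.89 on the log2 scale. Germ granule genes had 1 of 18 higher and 5 lower. The falling count was 8 without fed replicate 1 and 3 without fed replicate 4, fasted replicate 2 or fasted replicate 3, and with library size alone 4 rose and 1 fell. Sperm genes were rare in these libraries, where 8 of 13 tested members rose and 3 fell, or 1 without fed replicate 4 or fasted replicate 1. spe-15, a sperm myosin, rose from 5.69 ± 1.24 to 10.1 ± 1.54 CPM. Embryonic transcription factors had 10 of 23 higher and 3 lower, and die-1 rose from 42.4 ± 3.57 to 80.0 ± 4.69 CPM and hnd-1 by 0.68 on the log2 scale. The linker histone his-24 rose by 1.39 and the core histone gene his-38 fell by 2.76 on the log2 scale.

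Cuticle collagens moved in both directions, with more members lower. Of 156 col genes 116 passed the expression filter, and 28 of these rose and 50 fell, 43 of them at least 2-fold, with 38 and 46 under library size alone. The adult collagen col-19 was at 1361, 2577, 1865 and 1425 CPM fed and 193, 204, 171 and 193 CPM fasted. col-116 rose from 2.58 ± 0.709 to 13.01 ± 2.08 CPM. Reads of these similar genes can be divided unevenly between members. Hedgehog-like and patched-related genes, many of them expressed in the skin, had 21 of 64 higher and 29 lower (28 and 25 with library size alone). grd-14 and grd-3 fell from 21.9 ± 2.50 to 0.485 ± 0.209 CPM and from 131 ± 25.3 to 7.67 ± 0.768 CPM, and ptr-3 rose from 2.90 ± 0.492 to 13.4 ± 1.33 CPM. Transthyretin-like genes had 13 of 49 higher and 20 lower (23 and 14 with library size alone), with changes of 1.48 for ttr-49 and -3.09 for ttr-31.

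Defence families moved in different directions. The irg genes, known from infection of the intestine, fell in 6 of 7 cases and rose in none, with a median of -4.09. irg-7 was at 776, 1076, 979.7 and 1123 CPM fed and 34.1, 48.9, 45.0 and 38.8 CPM fasted, and irg-6 fell from 12.8 ± 3.89 to 0.243 ± 0.189 CPM. The pals genes, which include members of the response to intracellular pathogens, rose in 24 of 33 cases and fell in 5, with a median of 1.56, and the falling count was 3 without fasted replicate 1, 2 or 4. With library size alone 28 rose and 1 fell. The summed share of TPM of the pals genes overlapped between the groups, at 0.0181 to 0.0270% fed and 0.0249 to 0.0310% fasted. pals-39 was at 1.42, 1.27, 1.41 and 0.644 CPM fed and 15.8, 16.1, 13.3 and 11.5 CPM fasted, and pals-37 rose by 2.80. Lysozymes and saposin-like proteins had 12 of 31 higher and 16 lower. ilys-5, an invertebrate-type lysozyme, was at 594, 1039.7, 709 and 667 CPM fed and 30.1, 22.2, 26.1 and 26.7 CPM fasted. Its relative ilys-3 was at 0.0473, 0.191, 0.336 and 0.117 CPM fed, 1 to 5 reads a library, and at 13.6, 10.9, 9.36 and 11.4 CPM fasted (edgeR adjusted p = 5.86e-13). The saposin-like spp-23 fell from 27.99 ± 5.52 to 0.532 ± 0.173 CPM. C-type lectins had 38 higher and 52 lower (48 and 40 with library size alone), with clec-258 (-5.49) and clec-265 falling, the latter from 98.3 ± 12.7 to 3.31 ± 0.836 CPM and clec-55 rising from 1.97 ± 0.602 to 11.7 ± 1.28 CPM. The thaumatin-like thn-2 rose from 35.6 ± 5.20 to 286 ± 14.3 CPM and the caenacin cnc-2 fell from 21.3 ± 10.2 to 1.15 ± 0.335 CPM.

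Detoxification families had members that moved each way, in proportions that differed between families. Of 63 UDP-glucuronosyltransferase genes 15 rose and 36 fell (19 and 31 with library size alone). Of 39 glutathione transferases 6 rose and 20 fell (7 and 15). Of 61 cytochrome P450 genes 19 rose and 28 fell, with 12 rising without fasted replicate 1, and 26 rose and 23 fell with library size alone. ugt-18 rose by 1.82. ugt-63 was at 158, 134, 133 and 106 CPM fed and 2.26, 2.63, 2.01 and 1.60 CPM fasted. gst-10 and gst-24 fell from 109 ± 12.6 to 6.60 ± 1.14 CPM and from 587 ± 52.1 to 51.6 ± 4.99 CPM. cyp-35C1 fell from 48.3 ± 10.8 to 2.30 ± 0.672 CPM, whereas cyp-34A9 rose from 11.7 ± 3.55 to 145 ± 7.48 CPM and cyp-13A1 by 3.51 on the log2 scale. The alcohol dehydrogenase sodh-1 (chromosome V, positions 11888248 to 11889650) was the strongest rise of the dehydrogenases, at 13.3 ± 1.53 and 2743 ± 40.3 CPM, in a family with 17 of 44 members higher and 15 lower (21 and 10 with library size alone).

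Among subunits and adaptors of ubiquitin ligases the share of higher genes was above the 30.4% of all genes, a description without a test. Skp1-related genes, which link F-box proteins to cullins, rose in 14 of 19 cases and fell in 2, with a median of 0.85. skr-8 was at 81.8, 74.3, 77.5 and 40.8 CPM fed and 247, 208, 224 and 189 CPM fasted, and skr-10, a near neighbour in sequence whose reads may be shared with it, at 60.5 ± 16.8 and 188 ± 18.2 CPM. Of 148 tested fbxa genes 61 rose and 25 fell, and of 70 genes with MATH domains 30 rose and 14 fell (81 and 12, and 44 and 6, with library size alone). That is 41.2% and 42.9% higher, beside 41.8% of all tested genes averaging 1 to 5 CPM and 45.1% of those under 1 CPM. The excess of rises in fbxa and MATH genes is therefore not read as a result. The summed share of TPM of each overlapped between fed and fasted libraries. fbxa-21 rose from 2.06 ± 0.425 to 12.7 ± 1.72 CPM and fbxa-72 fell from 12.6 ± 2.58 to 2.36 ± 0.324 CPM. Within the MATH group bath-31 rose by 1.92 and math-4 fell by 2.52 on the log2 scale.

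**Figure D4:**
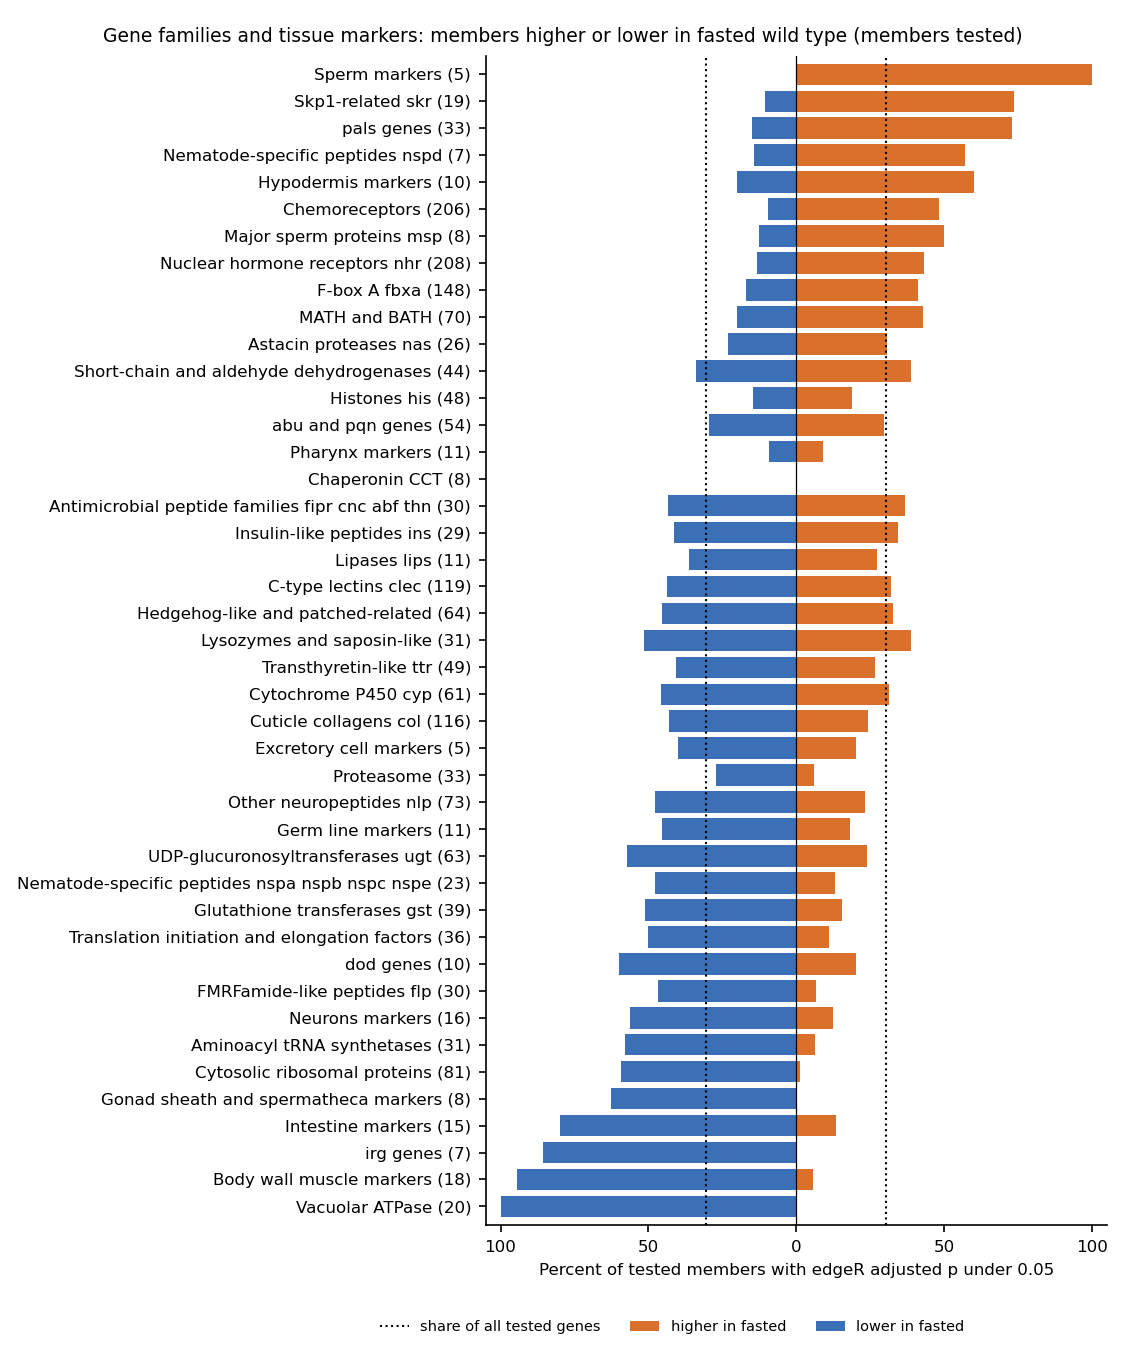
Percent of tested members of each gene family or tissue marker list that were lower (blue, to the left) or higher (orange, to the right) in fasted wild-type animals at an edgeR adjusted p under 0.05 with TMM scaling, with the number tested in brackets and dotted lines at the shares of all genes. All 20 vacuolar ATPase genes lie to the left; with library size alone, translation factors and tRNA synthetases lose their excess of lower members, and ribosomal proteins have 8 lower and 5 higher.

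Neuronal signalling genes were lower for peptide processing and for several peptides. Of 18 peptide-processing and monoamine genes 2 rose and 9 fell (4 and 8 with library size alone), and 1 rose without fed replicate 1 or fasted replicate 2. The proprotein convertase egl-3 fell from 69.5 ± 20.4 to 27.1 ± 3.50 CPM and the carboxypeptidase egl-21 from 70.5 ± 12.9 to 25.2 ± 2.40 CPM. The octopamine-synthesis enzyme tbh-1, which is made in gonadal sheath cells as well as neurons, was at 985, 903, 864 and 857 CPM fed and 215, 228, 219 and 239.5 CPM fasted. The amino acid decarboxylase bas-1 fell by 1.53 on the log2 scale. FMRFamide-like peptides had 2 of 30 higher and 14 lower (2 and 11 with library size alone). flp-15 fell by 1.86 and flp-28 rose by 0.76. Other neuropeptide-like genes had 17 of 73 higher and 35 lower (21 and 28), with nlp-26 falling from 20.3 ± 8.20 to 2.20 ± 0.695 CPM and nlp-39 rising from 7.08 ± 2.29 to 31.9 ± 1.46 CPM. Insulin-like peptides had 10 of 29 higher and 12 lower (14 and 10). ins-7, an insulin-like peptide made in the intestine, was at 62.4, 49.8, 50.2 and 27.6 CPM fed and 11.1, 8.67, 9.59 and 6.74 CPM fasted, and ins-37 rose by 1.78. Of 1307 chemoreceptor genes only 206 passed the expression filter, and 99 of these rose and 20 fell (126 and 12 with library size alone). That is 48.1% higher, beside 45.1% of all tested genes averaging under 1 CPM. A rare gene can pass the filter through the group in which it is high, so this excess of rises is not read as a result. srh-2 was at 0.142, 0.574, 0.740 and 0.410 CPM fed and 27.7, 26.3, 25.9 and 23.2 CPM fasted.

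Tissue markers did not move as a block. Of 15 intestinal markers 2 rose and 12 fell, with a median of -1.49, and of 18 body wall muscle markers 1 rose and 17 fell, with a median of -1.12. The microvillus actin act-5 was at 368, 513, 494 and 389 CPM fed and 48.8, 42.2, 47.0 and 42.02 CPM fasted, and the intestinal acid phosphatase pho-1 fell by 2.40 on the log2 scale. The gut esterase ges-1 rose from 31.2 ± 2.36 to 58.3 ± 6.56 CPM. In muscle, troponin T mup-2 fell from 182 ± 37.0 to 41.9 ± 3.47 CPM and the myosin light chain mlc-1 from 479 ± 93.0 to 126 ± 3.32 CPM. The myosin heavy chain myo-3, of the same cells, rose from 39.6 ± 3.73 to 66.0 ± 10.5 CPM. Most pharynx markers did not pass the test, with 1 of 11 higher and 1 lower, and the troponin tni-4 was the one that fell (-1.29). The falling count there was 2 without fasted replicate 4. Hypodermal markers rose in 6 of 10 cases and fell in 2. The summed share of TPM of that list was lower, at 0.0712 to 0.113% in fed and 0.0169 to 0.0184% in fasted libraries. By counts, most of the list's fed share was the abundant collagen col-19, whose fall is given above. The sum therefore does not describe the other members. A rare gene can also pass the filter through its higher group here. Neuronal markers had 2 of 16 higher and 9 lower (6 and 6 with library size alone), and 1 higher without fed replicate 1 or fasted replicate 2. Gonad sheath and spermatheca markers had 5 of 8 lower and none higher, and the sheath innexin inx-8 fell from 310.2 ± 44.3 to 86.5 ± 4.03 CPM. Germ line markers had 2 of 11 higher and 5 lower (4 higher and none lower with library size alone), with 0 or 1 higher when any wild-type library but fed replicate 4 was left out. Of 8 sperm markers 5 passed the filter and all 5 rose, or 4 without fed replicate 4. These genes are rare, and the filter can pass a rare gene through its higher group. Of all tested genes averaging under 1 CPM, 45.1% rose. The excretory cell transporter pgp-12 fell by 2.76 and the glial fig-1 by 1.82 on the log2 scale.

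By chromosome, the shares of changed genes were as follows. On chromosome X 37.0% of 2298 tested genes rose and 25.98% fell, with a median change of 0.15. On chromosome III 24.3% of 2390 rose and 32.8% fell, with a median of -0.09. With library size alone every chromosome's median was above 0, and that of X, at 0.49, was the highest of the nuclear chromosomes and that of III, at 0.26, the lowest. Of the nuclear chromosomes, V had the largest share of genes at least 2-fold higher, 20.6% of 3270.

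The fasting response of the labelled H3K27ac-deficient animals differed in 25.9% of all tested genes by the interaction of genotype and fasting, 14.5% with a more positive and 11.4% with a more negative change than in wild type. cbp-1, the acetyltransferase gene targeted by RNAi, had 79.4 to 119.03 CPM in the fed wild-type libraries, 128 to 171 CPM in the fasted wild-type libraries, 178 to 248 CPM in the fed labelled-deficient libraries and 259.9 to 322 CPM in the fasted labelled-deficient libraries. jmjd-3.1, a demethylase gene, had 11.9 to 12.9 CPM in the fed wild-type libraries, 16.4 to 22.7 CPM in the fasted wild-type libraries, 15.9 to 21.4 CPM in the fed labelled-deficient libraries and 21.1 to 23.2 CPM in the fasted labelled-deficient libraries. cbp-1 was chosen after its values were seen. No library labelled as cbp-1 RNAi was below a wild-type library of the same feeding state. Whether RNA from the RNAi bacteria adds to these reads was not tested, so the counts cannot decide whether the knockdown worked. The comparisons here rest on the labels alone. In the libraries labelled deficient 35.3% of genes changed on fasting. The vacuolar ATPase list stood out in count, with 19 of 20 genes less reduced than in wild type. Its median change there was -0.07. Oocyte and eggshell genes had 22 of 33 with a positive interaction and none with a negative one, and amino acid breakdown 15 of 29. Of the FOXO-target list 9 of 14 had a negative interaction and 1 a positive one. The list still rose in the libraries labelled deficient, where 8 of its 14 genes were higher on fasting and 2 lower. In wild type 10 were higher and 2 lower. The median change of the FOXO-target list in the libraries labelled deficient was not below its wild-type median of 1.07. acs-2 changed by 4.63 in wild type and 4.62 in the libraries labelled deficient (interaction -0.01, adjusted p = 0.974), and icl-1 by 2.42 and 2.49 (adjusted p = 0.779). An adjusted p above the threshold does not show that these changes were equal. ech-9 rose by 1.21 in wild type and fell by 3.04 on the log2 scale in the libraries labelled deficient. smf-3 rose by 2.51 and fell by 0.92, and ule-4 rose by 1.01 and fell by 1.25, in the same order. The split of positive and negative interactions depended on the scaling, with 56.1% positive under TMM, 44.3% with DESeq2's size factors, 38.4% with the upper quartile and 21.8% with library size alone.

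**Figure D5:**
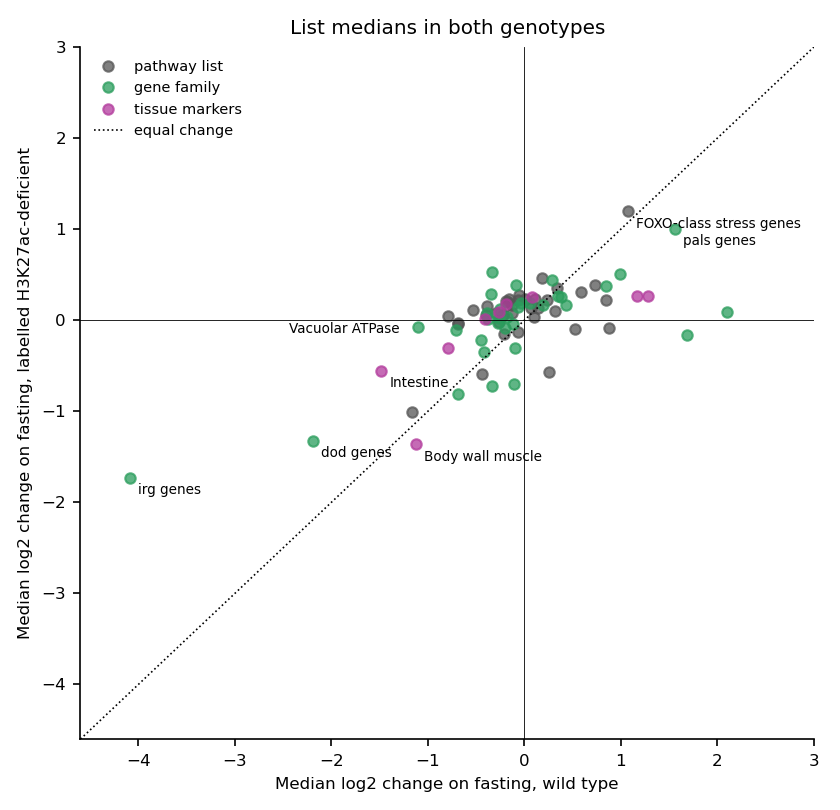
Median log2 change on fasting with TMM scaling over each list or family of at least 5 tested genes, in wild type (x axis) and in the labelled H3K27ac-deficient animals (y axis); each point is a list and the dotted line marks equal change. The vacuolar ATPase lies at -1.10 in wild type and -0.07 in the libraries labelled deficient; library size alone shifts the wild-type medians up by about 0.34.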

How the data were processed

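Polyadenylated RNA of 16 whole-animal pools was sequenced, and 8 wild-type libraries carry the results. Per the submitters' processing notes, the authors used FastQC 0.11.8, MultiQC 1.19, Salmon 1.9.0 and R 4.3.2 with WBcel235 and ce11. The authors deposited an estimated count per gene, which need not be whole, and TPM per transcript, summed here per gene. Strand use and bias correction are not given in the sources used here.

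Counts were rounded and tested with edgeR 4.0.16 in R 4.3.3 (filterByExpr, TMM, quasi-likelihood F test, one mean per group over all 16 libraries, Benjamini-Hochberg adjustment, threshold 0.05). Alternatives used limma 3.58.1 and DESeq2 1.42.0. Positions come from Ensembl release 115, WBcel235. On simulated counts of 14254 genes with 200 changed, the wild-type test recovered 74% of 2-fold and 95% of 4-fold changes, and 7.14% of calls were false. The simulation gave every gene the same dispersion and as many rises as falls. It changed a far smaller share of genes than was called here, so its rates do not carry over to these data. No 2 libraries agreed within sampling noise. The labels call the 4 replicates of a group independently synchronized, and p-values rest on the spread between these pools.

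The members and lists were chosen with earlier results of these data known. After the files were seen, hsp-70 was taken out of the endoplasmic reticulum list and the chemoreceptor name pattern was corrected. Named genes are, per list and at 5 CPM or more, the 2 largest rises and falls, members of lists of at most 15 genes, the 6 largest rises and falls at 50 CPM or more, and the 5 highest genes by TPM. Others are said to be chosen after their values were seen. Not every gene that the rule names is printed: those printed from lists of at most 15 genes were picked with their values known, and one gene is not reported here. Lists are held by WormBase gene ID and get counts and medians with no test of their own.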

Additional observations from a re-analysis of the deposited data

Results flagged for a closer look

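In 24 of 428 groups of 4 wild-type libraries checked, 1 library stood further from the other 3 than Dixon's test allows, and chance gives about 5%. For each gene below, the library stood above or below the other 3 of its group. Fasted replicate 1 stood apart for acs-1 at 30.7 CPM (below), pyc-1 at 216 CPM (below), ftn-1 at 30.5 CPM (above) and thn-2 at 307 CPM (above). Fasted replicate 2 stood apart for nac-3 at 8.30 CPM (above) and die-1 at 87.02 CPM (above). Fasted replicate 3 stood apart for dgat-2 at 15.8 CPM (above). Fasted replicate 4 stood apart for lipl-2 at 126 CPM (below), elo-6 at 858 CPM (below), aakg-4 at 41.2 CPM (above), hsp-17 at 12.3 CPM (below) and nlp-39 at 34.1 CPM (above). Fed replicate 1 stood apart for aak-2 at 38.3 CPM (below), smk-1 at 109 CPM (below) and myo-3 at 34.0 CPM (below). Fed replicate 2 stood apart for lips-15 at 75.3 CPM (above), gpx-5 at 139.9 CPM (above) and ptr-3 at 3.63 CPM (above). Fed replicate 3 stood apart for fmo-2 at 1.75 CPM (above). Fed replicate 4 stood apart for sepa-1 at 10.5 CPM (below), epg-2 at 57.5 CPM (below), pas-2 at 383 CPM (above) and htp-1 at 191 CPM (above). Nuclear-encoded respiratory chain genes took 1.26% of TPM in fasted replicate 3, apart from the other 3 fasted libraries. Whether the libraries' handling moved with these values was not tested.

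For 43 of the 201 named genes, and 423 of all tested genes, the fasting change of the libraries labelled deficient differed from the wild-type change by more than 2-fold in edgeR's test against that threshold. The differences below are the change in the libraries labelled deficient minus the change in wild type, on the log2 scale with TMM, and library size alone lowers their median over all genes by 0.29. Fat and amino acid metabolism had values of -2.53 for lipl-3, -3.85 for lipl-4, 2.17 for lips-5, -3.06 for cpt-3, -4.25 for ech-9, 1.67 for acox-1.2, 1.43 for dgat-2 and 1.97 for kynu-1. The alcohol dehydrogenase sodh-1 had -1.90 and the flavin-containing monooxygenase fmo-2 had -3.57. Stress, redox and metal genes had values of -6.43 for hsp-12.6, -2.76 for hsp-12.3, -2.46 for mtl-1, -2.15 for nnt-1, -1.80 for gpx-7 and -3.43 for smf-3. Detoxification genes had values of 1.93 for cyp-35C1, -2.13 for cyp-13A1, 3.04 for ugt-63 and 1.63 for gst-10. Proteases and the proton pump had values of 3.43 for asp-8, 2.43 for asp-14, 1.75 for vha-12 and 3.59 for pcp-2. Reproduction and chromatin genes had values of -1.81 for vit-3, 2.04 for his-38 and -2.26 for ule-4. Cuticle genes had values of 3.43 for col-93, 5.06 for col-43, 1.98 for col-80 and -2.38 for col-116. Defence genes had values of 2.17 for clec-265, 2.35 for spp-23, 2.61 for ilys-5, 1.75 for irg-7 and -2.51 for pals-39. Neuronal and intestinal genes had values of 1.60 for egl-21, 1.67 for egl-3, 2.73 for flp-15, -2.90 for srh-2 and 2.63 for act-5. Genes without a stated role had values of 4.19 for C17H12.6 and 2.50 for F46F2.3.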

How the results depend on the processing

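In wild type 9657 genes were called, 4808 higher and 4849 lower, and 2606 of the higher and 1642 of the lower reached a 2-fold change. Scaling to library size put 7458 up and 2523 down, 1089 of the latter past 2-fold. With a filter of 5 CPM, which tests fewer genes, 6245 were called, 2985 higher, and 867 and 943 at least 2-fold higher and lower. Leaving out 1 wild-type library gave 8892 to 9581 called genes. The interaction had 4109 calls, 2304 positive and 1805 negative, and 3288 to 4538 with 1 library left out. Scaled to library size, 989 were positive and 3547 negative, 478 and 1933 of them at least 2-fold; with the upper quartile, chosen for the interaction after seeing the data, 1462 were positive. At 5 CPM, 414 and 534 were at least 2-fold. At an adjusted p of 0.01, 2129 were called, 1215 positive and 914 negative, 666 of these at least 2-fold. The cause of the shifts under other scalings was not tested.

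With the replicate number as a block, 10692 wild-type changes and 6422 interactions (3843 positive) were called. In the 8 wild-type libraries alone the counts were 8684 without and 9792 with the block. Libraries of the same number had correlated deviations of 0.07 to 0.34, the highest for replicate 4, and 4 of 8 correlated best with their own number. These values do not settle whether equal numbers mark a shared experiment. The main test left the numbers unpaired, and the counts with the block show how much the calls depend on that choice.

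Of 201 named genes, 185 kept their verdict in every setting run. atgl-1 changed sign with library size alone, from -0.09 to 0.25. Upper quartile scaling also called pyc-1 and hsp-6 higher and left vit-6 uncalled (adjusted p = 0.117). Of 1640 list counts under other settings 132 moved by over 1.5 times. By estimated counts instead of TPM, the log2 share change was -0.75 instead of -0.99 for oocyte and eggshell genes and 1.50 instead of 2.09 for FOXO targets. Reads shared by near-identical genes and strand use, not given in the sources used here, limit single members of large families.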
